A study of Mus musculus with 9 samples.

Results

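Glycolysis genes and genes of the response to low oxygen were followed through 9 RNA-seq libraries of mouse embryonic stem (ES) cells. The set holds 44 genes, chosen by symbol and looked up in the table of gene values, which has 18504 named genes. All 44 were found. They comprise 17 glycolytic enzymes, 8 genes of glucose and lactate transport and flux control, 4 genes of oxygen sensing, and 15 other targets of the hypoxia-inducible factors (HIF).

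The cells were J1, an ES cell line of the 129S4/SvJae strain, at passages 5 to 7, and polyadenylated RNA was sequenced to see what Yap1, the coactivator restrained by the Hippo kinases, does in them. Yap1_OE carried overexpressed Yap1 and had BirA as its control. Yap1_KO1 and Yap1_KO2 were labelled as knockouts and had the ESC library as control. Yap1_KD1 was a knockdown with its own Control, and dESC_Yap1_KD1 was a knockdown in differentiated cells with dESC_control. How Yap1 was raised, edited or lowered, whether a line was 1 clone, the oxygen level, the medium and the way cells were differentiated are stated in no source used here. BirA is the name of a bacterial biotin ligase, and the labels give that name only. Each of the 8 groups had 1 library except the knockout-labelled group with 2, so a difference between single libraries has no replicate check and no p-value.

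Glycolysis splits glucose to pyruvate through a chain of enzymes, and lactate dehydrogenase then reduces pyruvate to lactate. ES cells run this chain at a high rate. HIF-1 alpha and HIF-2 alpha (genes Hif1a and Epas1) are hydroxylated by prolyl hydroxylases such as Egln1 and Egln3 while oxygen is present, which marks them for destruction through the von Hippel-Lindau protein. In low oxygen they persist, pair with Arnt, and bind the core ACGTG or GCGTG near their targets. Many glycolytic enzymes are HIF targets, and so are Egln3, the mitophagy receptor Bnip3 and the angiogenic factor Vegfa. HIF-1 alpha and HIF-2 alpha are controlled mostly at the level of protein, which RNA does not show.

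The promoters of 4 genes are printed because the results turn on them. Bnip3, Ankrd37 and Aldoc were among the genes that differed most between libraries, and Eno3 was 1 of 6 genes that stood lower than their control in all 4 libraries of lowered or knockout-labelled Yap1. Each line gives the 250 bases before the transcription start, 5′ to 3′ on the strand of the gene, from RefSeq on GRCm38.p6. Capitals mark the HIF core ACGTG or GCGTG and its reverse complements CACGT and CACGC. The Bnip3 stretch is chr7:138909507-138909756 on the minus strand, that of Ankrd37 chr8:45999851-46000100 on the minus strand, that of Aldoc chr11:78322823-78323072 on the plus strand (the first of its 2 start windows) and that of Eno3 chr11:70656926-70657175 on the plus strand.
Bnip3: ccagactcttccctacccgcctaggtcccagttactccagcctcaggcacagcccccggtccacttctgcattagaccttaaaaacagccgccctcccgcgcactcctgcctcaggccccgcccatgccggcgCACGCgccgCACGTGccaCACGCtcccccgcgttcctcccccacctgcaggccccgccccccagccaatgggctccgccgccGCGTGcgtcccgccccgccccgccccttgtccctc
Ankrd37: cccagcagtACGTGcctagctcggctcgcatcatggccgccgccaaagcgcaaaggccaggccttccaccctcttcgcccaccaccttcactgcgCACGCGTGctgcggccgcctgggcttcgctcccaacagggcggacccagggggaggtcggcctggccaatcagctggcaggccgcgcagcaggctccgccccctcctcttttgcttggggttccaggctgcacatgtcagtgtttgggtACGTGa
Aldoc: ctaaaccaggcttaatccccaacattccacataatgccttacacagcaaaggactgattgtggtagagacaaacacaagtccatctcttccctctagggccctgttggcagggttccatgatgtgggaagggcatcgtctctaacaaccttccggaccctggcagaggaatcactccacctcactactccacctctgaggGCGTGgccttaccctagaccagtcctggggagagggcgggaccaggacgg
Eno3: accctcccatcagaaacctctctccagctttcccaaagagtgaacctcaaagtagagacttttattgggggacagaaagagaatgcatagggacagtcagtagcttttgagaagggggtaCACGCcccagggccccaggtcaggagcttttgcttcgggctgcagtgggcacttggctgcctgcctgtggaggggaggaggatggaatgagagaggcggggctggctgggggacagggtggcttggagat

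Bnip3 holds 5 matches in this stretch, 2 of them the overlapping strands of CACGTG, and Ankrd37 holds 4, of which CACGC and GCGTG overlap. Aldoc and Eno3 hold 1 each. Promoter windows (250 bases before to 50 after a start) were found for 39 of the 44 genes. The core on either strand was in at least 1 window of 36 of them (92.3%), against 46.7% of 27025 genes. Genes can have more than 1 window, and by window the shares were 78.9% of 57 and 43.8% of 32851. Many of the genes were chosen as HIF targets, so a higher share is no independent result. Ndufa4l2, Ndrg1, Epas1, Slc2a3 and Bnip3l had no entry. By class the core was in 14 of 17 glycolytic enzymes, 7 of 7 transport and flux genes, 3 of 3 oxygen-sensing genes and 12 of 12 other HIF targets. CATTCC or its reverse complement GGAATG, the core bound by the TEAD partners of Yap1, was in 6 of 57 windows of the set (10.5%), all of them of glycolytic enzymes and those of Aldoc and Eno3 among them, and in 14.7% of 32851 windows of all genes. Such matches describe letters and not bound sites, and base composition was not matched in these shares.

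Levels are in FPKM, which is scaled to transcript length and to library depth, so levels of different genes are compared per length. Depth, estimated from the steps between low values, ran from 9210000 to 22400000 fragments a library. Yap1 itself stood at 139 FPKM in Yap1_OE against 46.7 in BirA, at 4.55 in Yap1_KD1 against 37.4 in Control and at 12.5 in dESC_Yap1_KD1 against 78.0 in dESC_control. The libraries labelled Yap1_KO1 and Yap1_KO2 kept 57.3 and 27.6 FPKM against 65.4 in ESC, so directions drawn from them are those of the labels. All 8 ES markers reached 1 FPKM in an undifferentiated library. In the 7 undifferentiated libraries their summed level ran from 4410 FPKM in Yap1_OE to 6253 in Yap1_KD1. It was 3188 in dESC_Yap1_KD1 and 2090 in dESC_control. Among 7 feeder fibroblast markers only Col1a1 and Thy1 reached 1 FPKM, and Dcn and Lum were at 0 in all 7 undifferentiated libraries. Thy1 was clearly present, at 4.64 FPKM in Yap1_OE against 19.3 in BirA. It had 39.2 and 32.0 FPKM in the libraries labelled Yap1_KO1 and Yap1_KO2 against 18.7 in ESC, and 26.0 in Yap1_KD1 against 22.3 in Control.

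None of the 44 genes had a value of 0. In every library 40 of them stood at 1 FPKM or more, and 43 did so in at least 1 library. The exception was Car9, a carbonic anhydrase of the cell surface, at 0.122 to 0.717 FPKM. Aldolase A (Aldoa, 928 to 2035 FPKM), pyruvate kinase (Pkm, 1016 to 1421) and lactate dehydrogenase A (Ldha, 618 to 1151) were the most abundant. Glycolytic enzymes together summed to 3483 to 5815 FPKM a library and the other HIF targets to 224 to 657. The summed level of the enzymes was thus many times that of the other HIF targets and also more even across the libraries. This did not hold for each gene. Aldoc ran from 3.84 to 45.4 FPKM and Pfkp from 9.88 to 102, while the HIF target Fam162a ran from 97.4 to 265. Among the other enzymes, glucose phosphate isomerase Gpi1 lay between 96.5 and 152 FPKM, triose phosphate isomerase Tpi1 between 181 and 335, phosphoglycerate kinase Pgk1 between 28.9 and 81.6 and phosphoglycerate mutase Pgam1 between 24.0 and 43.9. Neuronal enolase (Eno2, 0.212 to 3.18 FPKM) and the bifunctional enzyme Pfkfb4 (0.723 to 1.29) were the lowest of the glucose genes. These are bulk RNA values, in which fewer cells of a type and less RNA per cell cannot be told apart.

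**Figure D1:**
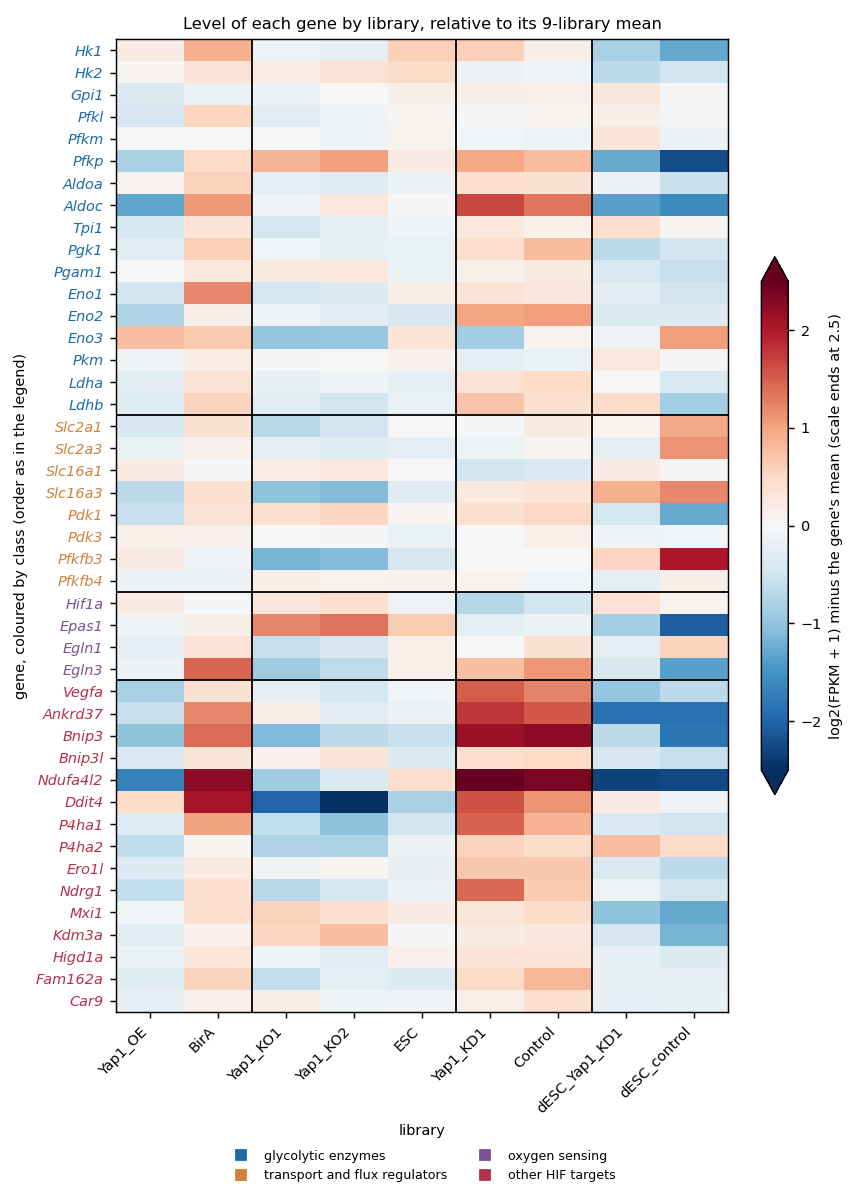
Level of each of the 44 genes (rows, coloured by class) in the 9 libraries (columns), as log2(FPKM + 1) minus the gene's mean over the libraries; colour runs to 2.5 in either direction and lines part the control sets. Red in BirA, Yap1_KD1 and Control marks most of the other HIF targets, and blue marks them in the differentiated pair.

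The 3 undifferentiated controls, none of them labelled for a change of Yap1, already differed in these genes. BirA and Control both stood above ESC, most of all in the other HIF targets, while no gene of the set was 2-fold apart between BirA and Control. Each comparison below takes the genes that reach 1 FPKM in any library it compares, and calls a gene apart when its ratio of FPKM + 1 is at least 2-fold. BirA over ESC had 8 of 43 genes at least 2-fold higher and 0 lower, where 1.14% of all genes were higher and 0.686% lower. Control over ESC had 9 of 43 higher and 0 lower, where 3.02% of all genes were higher and 1.91% lower. Control over BirA had 0 of 42 in either direction, where 1.23% of all genes were higher and 0.409% lower, so that count was near the background. Its log2 ratios ran from -0.94 to 0.88, with Ddit4 (-0.94), Eno1 (-0.92), Vegfa (0.86) and Bnip3 (0.85) not far under 2-fold. These 3 comparisons share libraries in pairs, so their counts are not independent. Yap1 itself stood at 46.7 FPKM in BirA, 37.4 in Control and 65.4 in ESC, and its part in these differences was not tested.

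ESC was the lowest of the 3 controls for 34 of 44 genes and for all 15 other HIF targets, against 37.5% of all genes. The ratio of the highest to the lowest control had a median of 2.25-fold over the 15 other HIF targets, of 1.53-fold over the glycolytic enzymes and of 1.37-fold over all genes. Bnip3, which tethers mitochondria to the autophagy machinery, stood at 30.2 FPKM in BirA, 55.1 in Control and 7.16 in ESC, a 7.70-fold spread. Ddit4, an inhibitor of the growth kinase mTORC1 also known as Redd1, stood at 207 FPKM in BirA, 108 in Control and 27.1 in ESC. Ndufa4l2, a mitochondrial protein induced by HIF-1, stood at 29.0 FPKM in BirA, 31.3 in Control and 7.39 in ESC. For each of the 3 genes the ESC library was the one far below the other two.

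Ankrd37, a HIF target that encodes an ankyrin repeat protein, had 25.6 FPKM in BirA, 33.0 in Control and 9.37 in ESC. P4ha1, a collagen prolyl hydroxylase, had 17.2 FPKM in BirA, 15.4 in Control and 5.47 in ESC. Vegfa had 11.96 FPKM in BirA, 22.5 in Control and 8.51 in ESC, so that only Control was 2-fold above ESC. Among the enzymes, Aldoc (aldolase C) had 29.5 FPKM in BirA, 36.1 in Control and 13.9 in ESC, and Eno1 (alpha enolase) had 187 in BirA, 98.3 in Control and 90.7 in ESC. Aldoc thus followed the HIF targets and Eno1 stood high in BirA alone. None of the 8 transport and flux genes was 2-fold apart between any 2 of these controls, the widest being the lactate exporter Slc16a3 at 1.63-fold.

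Overexpression was examined next. In Yap1_OE most of these genes stood below BirA, and the other HIF targets lay furthest below. Of 42 genes that passed the filter, 12 were at least 2-fold lower and 0 higher, where 2.35% of all genes were lower and 1.6% higher. The log2 ratio was below 0 for 37 of the 42, against 5529 of all 11599 genes. Its median was -0.69 over the set and 0.02 over all genes. Class medians were -0.67 for glycolytic enzymes, -0.27 for transport and flux genes, -0.43 for oxygen sensing and -0.95 for other HIF targets. The 12 were Pfkp, Aldoc and Eno1 among the enzymes, Slc16a3, Egln3, and 7 of the 14 other HIF targets.

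Ndufa4l2 had 0.963 FPKM in Yap1_OE against 29.0 in BirA, a log2 ratio of -3.94. Bnip3 had 4.97 FPKM against 30.2, a log2 ratio of -2.39, and its paralog Bnip3l had 15.4 against 25.8. Ankrd37 had 6.75 FPKM in Yap1_OE against 25.6 in BirA. Ndufa4l2, Bnip3 and Ankrd37 were thus well under their control, with Ndufa4l2 near the lower limit of what is measured. Bnip3l differed less, with a log2 ratio of -0.71. Vegfa stood at 4.67 FPKM in Yap1_OE against 11.96 in BirA, and Ddit4 at 68.3 against 207. P4ha1 had 6.18 FPKM in Yap1_OE against 17.2 in BirA, and Ndrg1, a differentiation and stress gene induced by hypoxia, had 3.38 against 7.95. All 14 other HIF targets that passed the filter lay below BirA, the nearest to it being the histone demethylase Kdm3a with a log2 ratio of -0.38.

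Among glycolytic enzymes, Aldoc had 4.92 FPKM in Yap1_OE against 29.5 in BirA (log2 ratio -2.37). Eno1 had 57.6 FPKM against 187 (-1.69), and the platelet phosphofructokinase Pfkp had 27.7 against 70.2 (-1.31). The remaining enzymes lay between -0.96 and 0.09, and Eno3, the muscle enolase, was the only one of 17 above 0, at 16.5 FPKM in Yap1_OE against 15.4 in BirA. The lactate exporter Slc16a3 had 39.9 FPKM in Yap1_OE against 84.8 in BirA, and the pyruvate dehydrogenase kinase Pdk1 had 34.6 against 66.3. Glucose transporter Slc2a1 had 193 FPKM against 334. Its relative Slc2a3 differed less, with 237 FPKM in Yap1_OE against 287 in BirA.

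Oxygen-sensing genes did not all lie on the same side of BirA in Yap1_OE. Hif1a had 34.8 FPKM in Yap1_OE against 28.9 in BirA, and Epas1 had 8.77 against 10.7. Egln3, a hydroxylase that HIF itself induces, had 12.1 FPKM against 38.4, a log2 ratio of -1.59. Egln1, the main hydroxylase of HIF, had 6.48 FPKM in Yap1_OE against 10.3 in BirA. The 8 ES markers summed to 4410 FPKM in Yap1_OE against 6090 in BirA, and each of them was lower in Yap1_OE. The 6 listed trophoblast markers summed to 203 FPKM in Yap1_OE against 30.4 in BirA. Most of the sum was Krt8, at 63.4 against 7.32, and Krt18, at 130 against 17.5. Hand1 had 5.46 FPKM against 0.456 and Cdx2 0.970 against 0.0331. Ascl2 went the other way, at 3.92 against 5.08, and Elf5 was close to absent in both libraries, at 0 against 0.0335. The part of these markers in these differences was not tested.

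**Figure D2:**
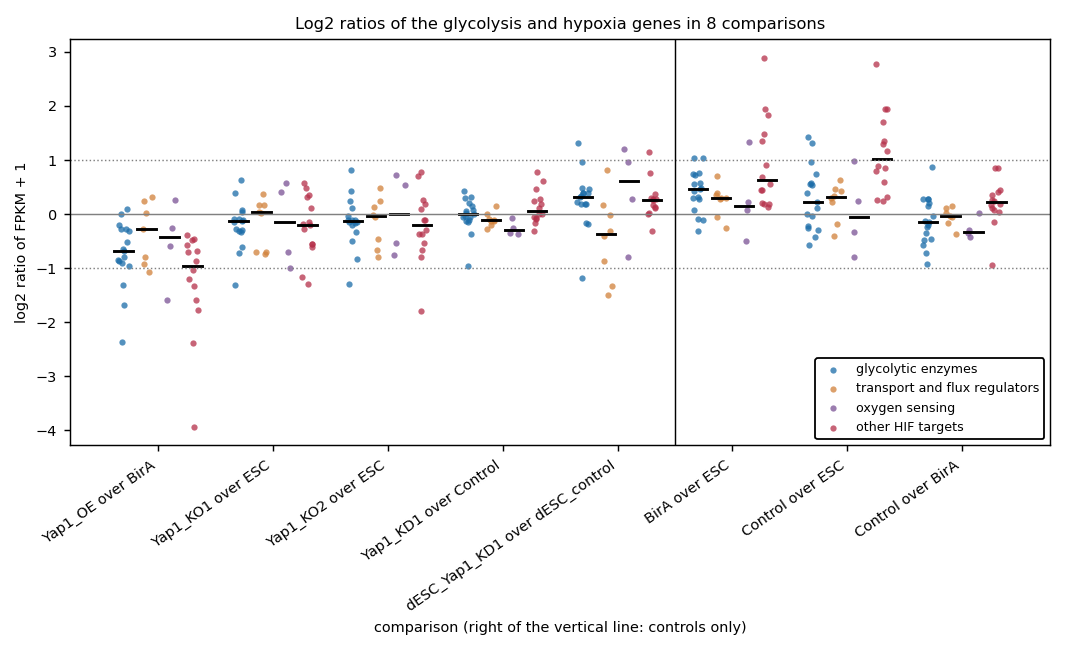
Log2 ratio of FPKM + 1 for each gene that passed the filter (points, coloured by class) in 8 comparisons, with the class median as a black bar and 2-fold marked by dotted lines. The other HIF targets sit below 0 in Yap1_OE over BirA (median -0.95) and above 0 in BirA over ESC (0.63) and Control over ESC (1.02), where neither library is labelled for a change of Yap1.

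How far Yap1_OE stood below a control depended on the control. Against ESC, 3 of 42 genes were at least 2-fold lower (Pfkp, Aldoc and Ndufa4l2) and 1 was higher, Ddit4 at 68.3 FPKM in Yap1_OE against 27.1 in ESC. Among the 12057 genes at 1 FPKM or more in Yap1_OE or any of the 3 controls, 274 (2.27%) were lower than ESC and 246 higher. Bnip3 had a log2 ratio of -0.45 against ESC and of -2.39 against BirA. Against the mean of the 3 controls 9 of the set were at least 2-fold lower and 0 higher. That count has no share over all genes beside it, so it is not read as a result about the set. Yap1_OE lay below all 3 controls for 27 of 44 genes (61.4%), against 26.0% of all genes. By class this was so for 12 of 15 other HIF targets, 10 of 17 glycolytic enzymes, 3 of 8 transport and flux genes and 2 of 4 oxygen-sensing genes. Of the 7 undifferentiated libraries Yap1_OE was the lowest for 18 of 44 genes (40.9%), against 18.2% of all genes.

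Yap1_OE over BirA and Control over ESC have no library in common. Across the 42 genes their log2 ratios had a Pearson r of -0.745, against -0.263 across 11349 genes, both given as descriptions across genes that share the 4 libraries and are not independent replicates. All 14 other HIF targets lay below 0 in Yap1_OE over BirA and above 0 in Control over ESC. So did 31 of the 42 genes, against 3354 of all 11349 genes. The 3 genes furthest below BirA in Yap1_OE (Ndufa4l2, Bnip3 and Aldoc) were all at least 2-fold higher in Control than in ESC.

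**Figure D3:**
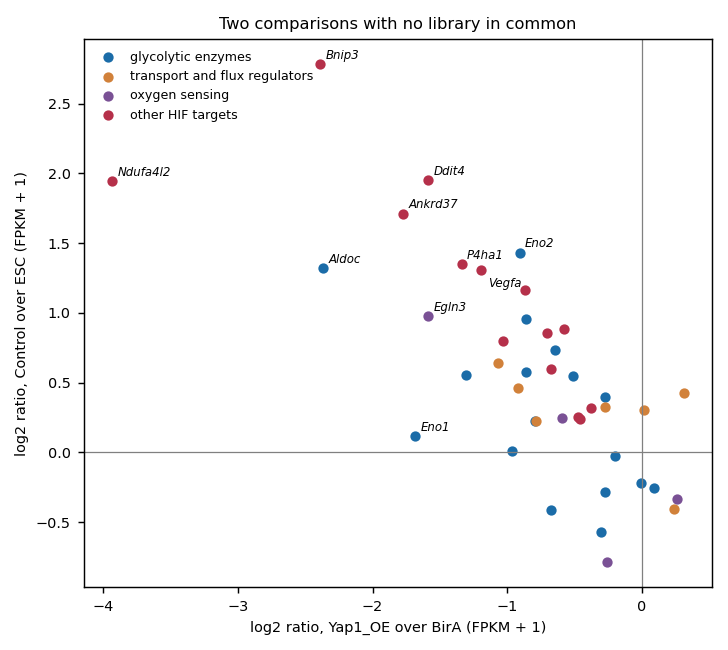
Log2 ratio of FPKM + 1 in Yap1_OE over BirA (horizontal axis) and in Control over ESC (vertical axis) for the 42 genes that passed both filters, coloured by class. Bnip3, Ndufa4l2, Ddit4, Ankrd37 and Aldoc lie at the upper left, low in the first comparison and high in the second.

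In the libraries labelled Yap1_KO1 and Yap1_KO2 the set split, with Eno3, Ddit4, Egln3 and the hexokinase Hk1 below ESC and Pfkp and Epas1 above it. Of 42 genes, 2 were at least 2-fold lower than ESC in both libraries (Eno3 and Ddit4) and 0 higher, where 0.979% of all genes were lower and 0.191% higher. Eno3 had 4.29 and 4.38 FPKM in the libraries labelled Yap1_KO1 and Yap1_KO2 against 12.2 in ESC. Ddit4 had 11.6 and 7.09 FPKM against 27.1, and Ndufa4l2 had 2.43 and 3.84 against 7.39. Egln3 had 6.84 and 8.30 FPKM in the libraries labelled Yap1_KO1 and Yap1_KO2 against 14.7 in ESC. Both labelled libraries lay under ESC for each of these 4 genes, and Eno3 differed least between the 2 libraries.

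On the higher side, Pfkp had 89.9 and 102 FPKM in the libraries labelled Yap1_KO1 and Yap1_KO2 against 57.8 in ESC. Epas1 had 23.4 and 25.9 FPKM against 15.4, and Hif1a had 36.5 and 40.3 against 27.3. Egln1 stood on the other side of its control, with 4.90 and 5.62 FPKM in the labelled libraries against 8.63 in ESC. Kdm3a had 20.7 and 24.1 FPKM against 13.7, and Bnip3l had 22.01 and 26.0 against 15.5, while Bnip3 had 4.53 and 6.57 against 7.16. HIF targets therefore lay on both sides of ESC, with 4 above and 8 below in both labelled libraries out of 14 that passed the filter. Glycolytic enzymes had 3 above and 11 below of 16, where all genes had 4801 above and 4592 below of 11538. The median log2 change of the enzymes was -0.17, and -0.0011 with the GC trend removed. In the lower direction, Slc16a3 had 31.5 and 29.8 FPKM against 52.0, Slc2a1 had 158 and 185 against 256, and Pfkfb3, which makes the activator of phosphofructokinase, had 1.40 and 1.52 against 3.02.

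With limma, 0 of 42 genes passed an adjusted p of 0.05 (Benjamini-Hochberg, 11538 genes), where 0.173% of all genes did. At an unadjusted limma p below 0.05 stood 18 of the 42 (42.9%, 7 higher and 11 lower), against 23.1% of all genes. Eno3 had a log2 change of -1.30 with a standard error (SE) of 0.14 and the lowest adjusted p of the set, 0.143 by limma with Benjamini-Hochberg adjustment. Without small RNA rows that limma value was 0.0410, the single call in the set, where 0.419% of all genes were called, and over all other settings run it lay between 0.0650 and 0.163. Ddit4 had -1.48 (SE 0.30, limma adjusted p = 0.151), Pfkp 0.72 (SE 0.12, adjusted p = 0.150) and Epas1 0.65 (SE 0.12, adjusted p = 0.150). The ratios of both labelled libraries followed transcript GC content across 11469 genes (Spearman rho -0.560 and -0.564, a description across genes), and the set's median GC was 51.7% against 50.1% for all. Leaving out the library labelled Yap1_KO2 left 4 genes at least 2-fold lower, and leaving out the library labelled Yap1_KO1 left 2. The share of all genes given above required both libraries, so these single-library counts have no background beside them.

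The knockdown in undifferentiated cells showed the fewest 2-fold differences of the Yap1 comparisons in this set. Of 43 genes 0 were at least 2-fold higher or lower in Yap1_KD1 than in Control, where 0.506% of all genes were in each direction. The count was thus near the share of all genes and not particular to this set. The median log2 ratio was -0.05 over the set and 0.01 over all genes. Eno3 was the furthest, with 4.69 FPKM in Yap1_KD1 against 10.03 in Control, a log2 ratio of -0.95. Ndrg1 had 17.0 FPKM against 9.58 (0.77), P4ha1 had 24.1 against 15.4 (0.61) and Ddit4 had 149 against 108 (0.47). Eno3 thus lay under its control and the 3 HIF targets above theirs.

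Hk1 had 35.8 FPKM in Yap1_KD1 against 26.3 in Control. Bnip3 had 51.9 FPKM in Yap1_KD1 against 55.1 in Control, and Ndufa4l2 had 35.9 against 31.3. Both genes were high in both libraries of this pair. All 4 oxygen-sensing genes lay below Control, with Hif1a at 17.8 FPKM against 21.4, Epas1 at 7.997 against 8.49, Egln1 at 7.83 against 10.4 and Egln3 at 23.2 against 29.9. Their log2 ratios ran from -0.37 to -0.08. Of the 8 transport and flux genes 7 lay below Control, none by more than 0.28 on the log2 scale. Among all 11861 genes, 5748 lay below Control.

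A joint fit set the labelled knockouts and the knockdown each against its own control, with a term for the arm. In limma 0 of 43 genes were called (Benjamini-Hochberg adjusted, 12128 genes), where 0.0165% of all genes were, and 6 of 43 reached an unadjusted p under 0.05 against 6.75% of all genes. Eno3 had a log2 change of -1.15 (SE 0.15), with a limma adjusted p of 0.359, and of 0.0815 to 0.643 over the other settings run.

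Across the 4 libraries of lowered or knockout-labelled Yap1, differentiated cells included, 6 of 44 genes (13.6%) were lower than their control in all 4, against 12.1% of 12871 genes. They were Hk2, Eno3, Slc2a1, Slc16a3, Pfkfb3 and Egln1. Pfkp was the single gene higher in all 4, or 2.27% against 10.2% of all genes. The counts were close to or under the background. Eno3 stood out by size, with log2 ratios of -1.32 and -1.29 in the libraries labelled Yap1_KO1 and Yap1_KO2, -0.95 in Yap1_KD1 and -1.17 in dESC_Yap1_KD1. Of 12871 genes 14 (0.109%) were lower by 0.9 or more in all 4. This size was set after the values of Eno3 were seen, and the 2 knockout-labelled ratios share the ESC library.

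**Figure D4:**
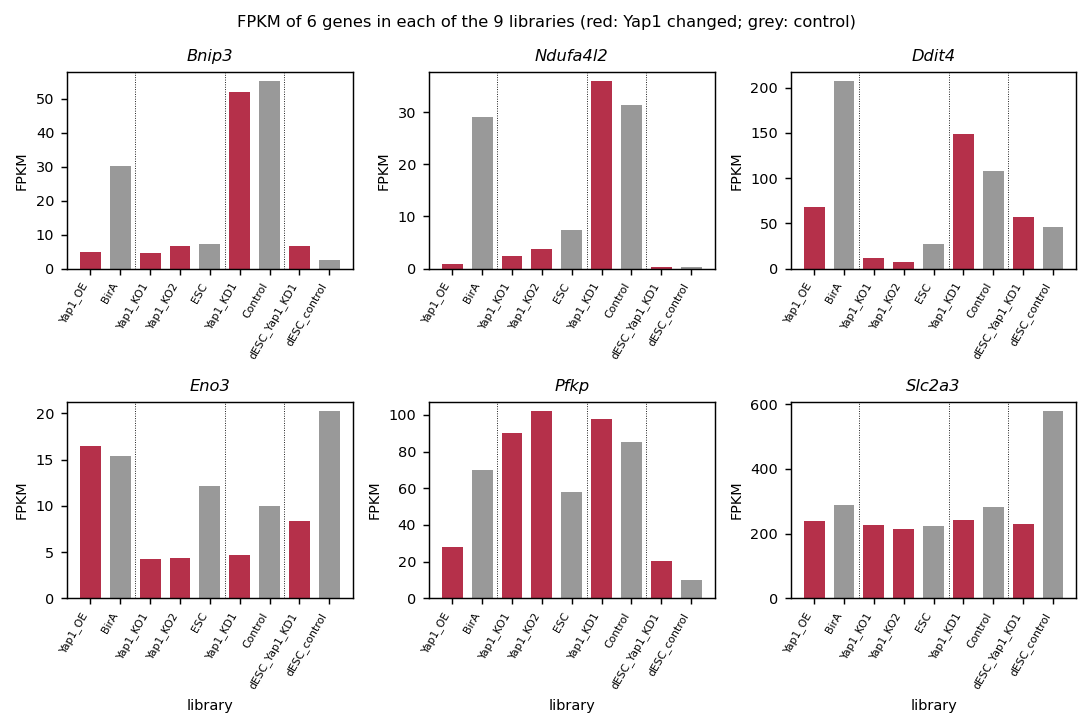
FPKM of 6 genes in each of the 9 libraries, with red bars for libraries labelled for a change of Yap1, grey bars for controls and dotted lines between control sets; each panel has its own axis from 0. Eno3 is below its control in the 4 libraries of lowered or knockout-labelled Yap1 (4.29 to 8.42 FPKM against 10.03 to 20.2), while Bnip3 and Ndufa4l2 are high in BirA, Yap1_KD1 and Control.

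Differentiated control cells had lower levels of most of the set than the undifferentiated Control. Of 43 genes 21 were at least 2-fold lower in dESC_control and 2 higher, where 10.1% of all genes were lower and 13.1% higher. No label says that these 2 libraries form a pair. Ndufa4l2 stood at 0.322 FPKM in dESC_control against 31.3 in Control, Bnip3 at 2.42 against 55.1 and Ankrd37 at 2.16 against 33.0. In all, 12 of 14 other HIF targets were at least 2-fold lower. Pfkp had 9.88 FPKM in dESC_control against 85.3 in Control, Aldoc had 3.84 against 36.1, and Egln3 had 4.65 against 29.9. The 2 genes on the higher side were the glucose transporter Slc2a3, at 578 FPKM against 281, and Pfkfb3, at 20.9 against 4.40.

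Set beside ESC, the control with the lowest HIF targets, dESC_control was nearer for several of these genes. Bnip3 stood at 2.42 FPKM in dESC_control and 7.16 in ESC, Aldoc at 3.84 and 13.9, and Ddit4 at 45.9 and 27.1. Slc2a3 in dESC_control was above each of the 3 undifferentiated controls, which had 224 to 287 FPKM. Epas1 had 1.53 FPKM in dESC_control against 8.49 to 15.4 in the undifferentiated controls.

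In differentiated cells the knockdown had both higher and lower genes. Of 41 genes that passed the filter, 3 were at least 2-fold higher in dESC_Yap1_KD1 than in dESC_control and 3 lower, where 1.71% of all genes were higher and 4.77% lower. The higher genes were Ldhb, the heart form of lactate dehydrogenase (266 FPKM against 107, log2 ratio 1.31), Epas1 (4.82 against 1.53, 1.20) and Bnip3 (6.58 against 2.42, 1.15). The lower genes were Pfkfb3 (6.80 FPKM against 20.9, log2 ratio -1.49), Slc2a3 (229 against 578, -1.33) and Eno3 (8.42 against 20.2, -1.17). Slc2a3 and Pfkfb3 were also the 2 genes that stood 2-fold higher in dESC_control than in Control, and these 2 comparisons share dESC_control.

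Slc2a3 at 229 FPKM in dESC_Yap1_KD1 lay within the 215 to 287 FPKM of the 7 undifferentiated libraries, and Pfkfb3 at 6.80 lay above their 1.40 to 5.16. Pfkp had 20.2 FPKM in dESC_Yap1_KD1 against 9.88 in dESC_control, Egln3 had 9.96 against 4.65, and Pdk1 had 37.7 against 21.0. Hif1a had 39.0 FPKM in dESC_Yap1_KD1 against 32.0 in dESC_control, and Egln1 had 6.40 against 11.8. Class medians of the log2 ratio were 0.32 for glycolytic enzymes, 0.26 for other HIF targets, 0.62 for oxygen sensing and -0.36 for transport and flux genes, against -0.01 for all genes. The ES markers summed to 3188 FPKM in dESC_Yap1_KD1 against 2090 in dESC_control, with Klf4 the other way at 5.83 against 9.10. The 6 trophoblast markers summed to 182 FPKM against 1356, most of it Krt8 (65.3 against 486) and Krt18 (102 against 832). Ascl2 had 3.15 FPKM against 3.74 and Elf5 0.0743 against 0.0507. The 6 markers of mesoderm and primitive streak summed to 36.9 FPKM against 114. The part of these markers in the ratios above was not tested.

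Several steps of glycolysis are run by isozymes, and their shares of the summed FPKM differed between libraries. Among phosphofructokinases, which set the pace of the pathway, Pfkp made up 21.0% in Yap1_OE against 28.5% in BirA. Its share was 44.3% and 45.5% in the libraries labelled Yap1_KO1 and Yap1_KO2 against 29.8% in ESC, 43.96% in Yap1_KD1 against 39.2% in Control, and 11.95% in dESC_Yap1_KD1 against 7.33% in dESC_control. The liver form Pfkl was the most abundant member in every library except those labelled Yap1_KO1 and Yap1_KO2 and Yap1_KD1. The muscle form Pfkm stayed between 27.0 and 37.9 FPKM in all 9 libraries.

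Enolase was mostly Eno1, at 73.7% to 93.1% of the family. Eno3 made up 22.2% of enolase in Yap1_OE against 7.52% in BirA, where Eno3 itself differed little and Eno1 was lower. It made up 6.63% and 6.34% in the libraries labelled Yap1_KO1 and Yap1_KO2 against 11.8% in ESC, 4.20% in Yap1_KD1 against 8.996% in Control, and 11.1% in dESC_Yap1_KD1 against 25.5% in dESC_control. Aldoa made up 97.5% to 99.7% of aldolase, with 1427 FPKM in Yap1_OE against 2035 in BirA, so the lower level of Aldoc concerned a small share of the family.

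Hexokinase was shared by Hk1 and Hk2. Hk1 had 27.1 FPKM in Yap1_OE against 43.8 in BirA, 21.2 and 19.4 in the libraries labelled Yap1_KO1 and Yap1_KO2 against 35.5 in ESC, and 12.9 in dESC_Yap1_KD1 against 9.07 in dESC_control. Hk2 had 39.2 FPKM in Yap1_OE against 48.6 in BirA, 43.5 and 48.9 in the labelled libraries against 52.6 in ESC, and 23.8 in dESC_Yap1_KD1 against 26.8 in dESC_control. Hk2 was thus the steadier of the pair. Lactate dehydrogenase was 75.2% to 85.3% Ldha, with the lowest share in dESC_Yap1_KD1 and the highest in dESC_control.

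Other genes of the same pathways were read from 4 lists, with 60 genes in the table. In Yap1_OE over BirA 2.35% of all genes were at least 2-fold lower and 1.6% higher. There 0 of 8 pentose phosphate genes and 0 of 11 genes of pyruvate entry to mitochondria were at least 2-fold apart. Of 12 glycogen and galactose genes 2 were lower, phosphoglucomutase Pgm2 (13.8 FPKM against 38.7) and glycogen phosphorylase Pygl (0.343 against 2.63). Of 24 further HIF genes and oxygen-sensing regulators that passed the filter, 4 were lower (the vasodilator Adm, the clock repressor Bhlhe40, the lysyl oxidase Loxl2 and the muscle phosphoglycerate mutase Pgam2). The 1 higher was Cited2, a HIF target that limits HIF activity, at 58.6 FPKM in Yap1_OE against 26.2 in BirA. Bhlhe40 had 8.94 FPKM in Yap1_OE against 31.3 in BirA, and 7.89 in ESC.

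The same neighbours also differed between controls. Bhlhe40 and Adm were at least 2-fold higher in BirA than in ESC, and Pygl, Bhlhe40 and the glycogen-targeting subunit Ppp1r3c were so in Control over ESC. Cited2 was the opposite, with 26.2 FPKM in BirA and 19.2 in Control against 48.8 in ESC. In the libraries labelled Yap1_KO1 and Yap1_KO2 only Pgam2 was 2-fold lower in both, at 5.24 and 3.30 FPKM against 11.8 in ESC, and limma with Benjamini-Hochberg adjustment called 0 of the 52 neighbours tested, with 13 (25%) at an unadjusted p under 0.05, close to the 23.1% of all genes. In Yap1_KD1 over Control 0 neighbours were 2-fold apart.

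In differentiated knockdown cells 5 of the 25 further HIF genes that passed the filter were at least 2-fold lower than in dESC_control and 1 was higher, where 4.77% of all genes were lower and 1.71% higher. No gene of the other 3 lists was 2-fold apart. Cited2 had 51.0 FPKM in dESC_Yap1_KD1 against 173 in dESC_control, Bhlhe40 had 21.8 against 54.0 and the lipid droplet protein Plin2 had 29.2 against 82.4. Adm and the placental growth factor Pgf were lower too, and Bhlhe41, the relative of Bhlhe40, had 4.71 FPKM against 0.592. Cited2, Bhlhe40, Plin2 and Pgf were also at least 2-fold higher in dESC_control than in Control, and these 2 comparisons share dESC_control, so they are not independent. The von Hippel-Lindau gene Vhl stayed between 10.2 and 15.9 FPKM and the HIF partner Arnt between 23.6 and 38.2 FPKM over the 9 libraries. Gapdh, the enzyme between aldolase and phosphoglycerate kinase, was listed at only 1.24 to 3.17 FPKM; it has many near-identical copies, so its value is uncertain.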

How the data were processed

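Polyadenylated RNA of 9 libraries in 8 groups was read from 1 table of gene values. The authors deposited FPKM values, made with TopHat2 and Cuffdiff on mm9 per the submitters' processing notes; no source used here states versions, annotation, strand handling or read length. The unit is not written in the table and was taken from the tool. Cuffdiff scales libraries against each other, and a 0 can be a failed estimate. Of 23277 rows 4746 were blank and 27 had symbols turned to dates, which left 18504 genes. Columns were matched by title, with 0 left unmatched. Depth was estimated from steps between low values, and genes near 1 FPKM are the least precise.

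Ratios are differences of log2(FPKM + 1), which understates those of low genes, and a gene entered a comparison if any of its libraries reached 1 FPKM. Single libraries were compared by a 2-fold count with no test. Both fits, the knockout-labelled pair against ESC (residual df 1) and the joint one with a term for the arm (residual df 2), were made with limma 3.58.1 under R 4.3.3. They used a trended prior variance and Benjamini-Hochberg adjustment at 0.05, and were tested on simulated data. A control with 1 library is taken to vary like the pair. No label names separate cultures, so p-values reflect spread among these libraries alone, which may be technical. GRCm38, another build than mm9, served for lengths, GC content (98.8% of genes) and promoters only.

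The 44 genes, the classes and the lists were chosen with earlier results of these data known. Any gene of the set may be named. Given in full are the 6 with the largest ratio at 5 FPKM or more in each comparison, the oxygen-sensing genes and the isozymes, and, from the 4 pathway lists, genes at least 2-fold apart or called. Alternatives were the pseudocount, the filter, centring, removal of a GC trend or of small RNA rows (169), other controls, and each library of the pair left out. Removal of small RNA rows from the overexpression and undifferentiated knockdown backgrounds was chosen after seeing the data.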

Additional observations from a re-analysis of the deposited data

Results flagged for a closer look

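In 3 genes the knockdown in differentiated cells and the knockdown in undifferentiated cells had ratios of opposite direction that lay at least 2-fold apart. Such a difference was found in 3 of 44 genes (6.82%) and in 400 of 12719 genes overall (3.14%). With 1 library on each side the difference was not tested.

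Egln3 had a log2 ratio of 0.96 in dESC_Yap1_KD1 over dESC_control and of -0.35 in Yap1_KD1 over Control, a difference of 1.31. Epas1 had 1.20 in the differentiated comparison and -0.08 in the undifferentiated one, a difference of 1.28. Bnip3 had 1.15 in the differentiated comparison and -0.09 in the undifferentiated one, a difference of 1.24. The undifferentiated ratios of Epas1 and Bnip3 were close to 0, so their opposite direction rests on small values.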

How the results depend on the processing

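Of the counts of genes per comparison, 130 alternative values were within 1.5 times the main count and 16 were not; no result reversed. With ESC as the control of Yap1_OE, 3 genes were at least 2-fold lower and 1 higher, where BirA gave 12 and 0. Over all genes ESC gave 274 lower and 246 higher of 12057. For Yap1_KD1, 1 gene was lower with a pseudocount of 0.1, 1 with the GC trend removed, and 1 lower and 3 higher against the mean of the 3 undifferentiated controls. For dESC_Yap1_KD1 the higher count was 5 with a pseudocount of 0.1 and 1 with a pseudocount of 5. For the libraries labelled Yap1_KO1 and Yap1_KO2 the lower count was 0 with a pseudocount of 5, 1 with the GC trend removed, and 7, with 1 higher, against the mean of the 3 controls; leaving out each library in turn gave 2 to 4. Without small RNA rows limma called 1 gene lower, Eno3. Control over BirA had 1 higher gene with a pseudocount of 0.1, and dESC_control over Control 1 when centred. The cause was not tested. Counts against the mean of the 3 controls, and those with 1 library left out, have no share over all genes beside them. They are therefore not read as results about the set. Over all genes, limma called 20 in the knockout-labelled pair, 48 without small RNA rows and 40 with the GC trend removed; the 60 genes higher and 60 lower in Yap1_KD1 became 24 and 28 without small RNA rows, an alternative chosen after seeing the data. Among single genes 370 values kept their call or stayed close to the main value, 72 moved and 1 passed the threshold. No paired analysis was possible because the groups compared share fewer than 2 replicate numbers. Ratios of genes near 1 FPKM, such as Ndufa4l2 in Yap1_OE, depend on the pseudocount (-4.78 at 0.1 and -2.51 at 5).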

Other observations

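Ak4 (adenylate kinase 4), a mitochondrial enzyme from the list of further HIF genes, differed in direction from Bnip3 and Ndufa4l2 in the knockout-labelled libraries. Ak4 had 26.2 and 37.7 FPKM in the libraries labelled Yap1_KO1 and Yap1_KO2 against 17.0 in ESC, 26.8 in Yap1_KD1 against 16.7 in Control and 6.23 in dESC_Yap1_KD1 against 4.01 in dESC_control. In Yap1_OE it had 8.04 FPKM against 14.7 in BirA. Its log2 change in the knockout-labelled pair was 0.85 (SE 0.24, limma with Benjamini-Hochberg adjusted p = 0.177), so it was not called. Ak4 was chosen after its values were seen.

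Between dESC_control and Control the neighbour genes lay in both directions. Of 26 further HIF genes and regulators that passed the filter, 5 were at least 2-fold higher in dESC_control and 4 lower, where 13.1% of all genes were higher and 10.1% lower. Rragd, a lysosomal GTPase of the mTORC1 pathway, had 27.0 FPKM in dESC_control against 10.8 in Control. Gbe1, the glycogen branching enzyme, had 3.53 FPKM against 0.798, while Pgm2 had 17.6 against 36.5.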
